A study of Trichoderma reesei RUT C-30 with 16 samples.

Results

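The 22 genes described here were almost without reads in untreated cultures of *Trichoderma reesei* and were read in cultures treated with dithiothreitol (DTT), with glucose and with lactose as carbon source. They were chosen out of the 10008 counted genes by their scaled counts (CPM, with the total count of a library scaled to 1000000). The mean CPM of the 4 libraries of a condition, both strains together, had to be below 1 in both untreated conditions and at least 5 in both DTT conditions. Of the 10008 genes, 1531 lay below 1 CPM in both untreated conditions, and 46 of these reached 5 CPM in glucose with DTT and 29 in lactose with DTT. A total of 23 genes met all limits, and the catalase gene *cta1* (TrA0445C) was left out. The difference between DTT and control cultures therefore chose the genes and is given below as a description without a test.

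DTT is a reducing agent that keeps disulphide bonds from forming in the endoplasmic reticulum (ER). Unfolded proteins then accumulate there, and fungal cells answer with the unfolded protein response (UPR), in which chaperones such as BIP1 and disulphide isomerases such as PDI1 are made in larger amounts. Thiol compounds also disturb the redox balance of the whole cell, so that a DTT culture is not under ER stress alone.

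RNA was sequenced from 16 fed-batch cultures, 2 for each of 2 strains in 4 conditions: glucose control (GC), glucose with DTT (GD), lactose control (LC) and lactose with DTT (LD). DTT was given at 10 mM for 2 h at the end of the fed-batch, which followed a batch phase on glucose. Lactose induces cellulases in this fungus, so that the study put a physiological secretion load beside the chemical one. The strains were the cellulase hyperproducer Rut-C30, which carries a truncated *cre1* carbon repressor gene in all groups, and Δres2, a Rut-C30 transformant in which CRISPR-Cas9 had replaced the transcription factor gene *res2* by the *hph* hygromycin resistance cassette. Polyadenylated RNA was read, and between 20351784 and 35679977 reads per library fell on genes. The sources used here pair no name of the count tables with *res2*. TrA1112W, which was picked by its values, had 115 to 218 CPM in the 8 Rut-C30 libraries and at most 0.0887 CPM in the 8 Δres2 libraries and, having been picked that way, is no independent check of the strain labels. The log2 counts of duplicate cultures correlated across genes with r = 0.991 to 0.995 in lactose, but less closely in glucose. In Rut-C30, r was 0.906 for GC and 0.953 for GD, and in Δres2 it was 0.948 for GC and 0.88 for GD, so that the GD cultures of Δres2 resembled each other least.

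The annotation tells little about these genes. TRIREDRAFT numbers of the study could be paired with 18 of the 22, and for none of the 18 did the RefSeq table hold a symbol beyond the locus tag. TrB1936W (TRIREDRAFT_69164) and TrF1120W (TRIREDRAFT_67692) belong to the transmembrane transport genes which the study listed from these samples. The other 4 genes, TrF0086C, TrC0314C, TrB1648W and TrB1649W, are marked as new models of the deposited annotation. New models made up 18.2% of the 22 genes, 9.39% of the 9847 annotated genes and 28.6% of the annotated genes below 1 CPM in both untreated conditions. The coding sequences had a median of 918 bases, against 1218 for all annotated genes and 786 for those below 1 CPM in both untreated conditions, and 5 of the 22 had at most 300 bases (22.7%, against 5.69% of all annotated genes and 18.2% of those below 1 CPM in both untreated conditions). In the study's own clustering of differentially expressed genes, 15 of the 22 fell into the third cluster of both strains. That grouping was made on the same samples and is not independent of the limits used here.

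DTT took the summed CPM of the 22 genes from 6.66 to 11.4 in the 8 control libraries to 1202 to 1794 in the 8 DTT libraries. Without TrF0086C, which alone supplied a large share, the sum in the DTT libraries was 446 to 935. The mean CPM of the genes went from a median of 0.389 in GC to 15.2 in GD and from 0.276 in LC to 14.1 in LD. The ratio of the means ran from 9.99 for TrD0868C to 3316 for TrF0086C in GD/GC and from 11.5 for TrG0063C to 2242 for TrF0086C in LD/LC. None of the genes was at 0 counts in every control library. Their counts summed over the 8 control libraries lay between 12 and 181, so that the control levels rest on few reads. The higher ratios are imprecise for that reason.

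Reading each library by itself gave a stricter picture than the means. In every one of the 8 control libraries, 16 of the 22 genes were below 1 CPM, and in every one of the 8 DTT libraries, 10 were at 5 CPM or more. Both limits were met in every library by 8 genes, namely TrF0086C, TrC0314C, TrB1648W, TrB1649W, TrD0016C, TrA1946W, TrA2001C and TrB1107C. The 8 DTT libraries lay above the 8 control libraries without overlap for 18 genes, beside 8.67% of all fitted genes. Since the means had chosen the genes, nothing is read from that count. The 4 genes with an overlap were TrD0868C, TrG0063C, TrG0149C and TrG1002W, each through at least 1 GD library.

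**Figure D1:**
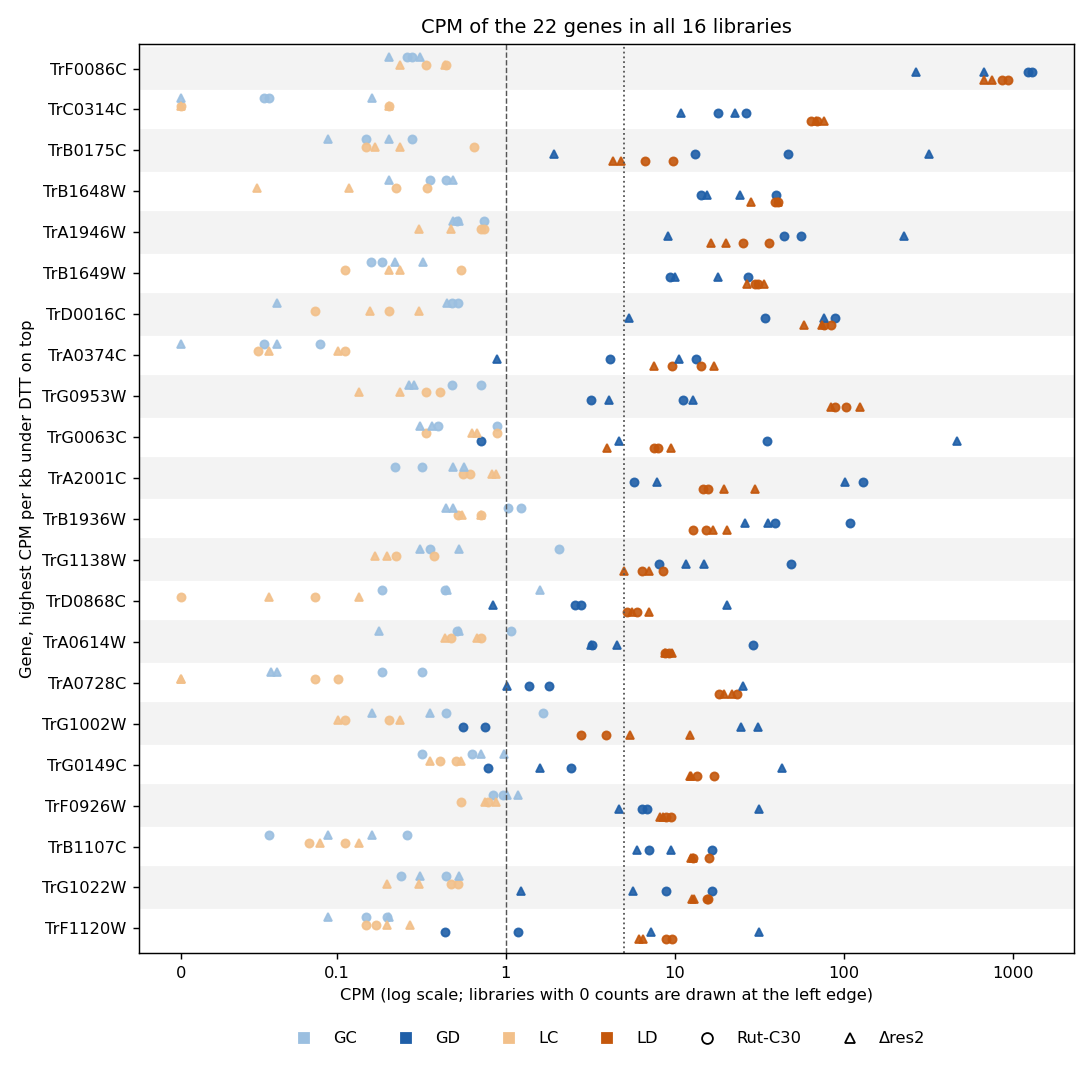
CPM of the 22 genes (rows, ordered by mean CPM per kb of coding sequence under DTT) in all 16 libraries on a log axis, with circles for Rut-C30, triangles for Δres2, light colours for control and dark colours for DTT libraries. The dashed line marks 1 CPM and the dotted line 5 CPM. The dark orange LD points of a row spread over 1.09-fold to 4.45-fold, most for TrG1002W, and the dark blue GD points over up to 659-fold.

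The highest level by far was that of TrF0086C, a new model on the minus strand of chromosome VI (286635 to 287764 in the deposited annotation of the QM6a genome, 4 exons, 888 coding bases). It had between 0.203 and 0.442 CPM in the control libraries. In GD, it counted 1236 and 1303 CPM in the Rut-C30 cultures and 676 and 267 CPM in the Δres2 cultures. In LD, the levels were 866 and 940 CPM in Rut-C30 and 682 and 755 CPM in Δres2. The lowest of the 8 DTT libraries, a GD culture of Δres2, still stood far above the highest control library.

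Per kb of its coding sequence, the mean level of TrF0086C was 980 CPM per kb in GD and 913 CPM per kb in LD, which placed it at rank 165 and 167 of the 9847 annotated genes. The next genes on this scale were far lower. In GD they were TrB0175C with 430 CPM per kb and TrA1946W with 168 CPM per kb, and in LD TrC0314C with 408 CPM per kb and TrB1648W with 159 CPM per kb. TrB0175C and TrA1946W owed their place in GD to the second Δres2 culture, without which they stood at 93.3 and 72.8 CPM per kb, and TrC0314C without its highest GD culture at 100.4 CPM per kb. The lowest levels were those of TrG1022W with 4.8 CPM per kb in GD and TrG0063C with 4.93 CPM per kb in LD.

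The gene beside TrF0086C behaved much like it under DTT. TrF0087W lies 889 bases away on the plus strand, so that both are transcribed away from the stretch between them, and it is not among the 22 since it was read in the control cultures, at 15.9 to 65.7 CPM. In GD it counted 1231 and 1576 CPM in Rut-C30 and 543 and 509 CPM in Δres2, and in LD 819 and 901 CPM in Rut-C30 and 713 and 835 CPM in Δres2. Its log2 fold change was 4.82 ± 0.36 (SE) in GD/GC and 4.05 ± 0.34 in LD/LC, with adjusted p = 2.9e-06 and 5.02e-06 (quasi-likelihood test of edgeR, adjusted after Benjamini-Hochberg over all fitted genes, n = 4 against 4). TrF0087W was named after its values were seen. Whether counting used the strand is not stated, but the 2 coding sequences do not overlap.

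**Figure D2:**
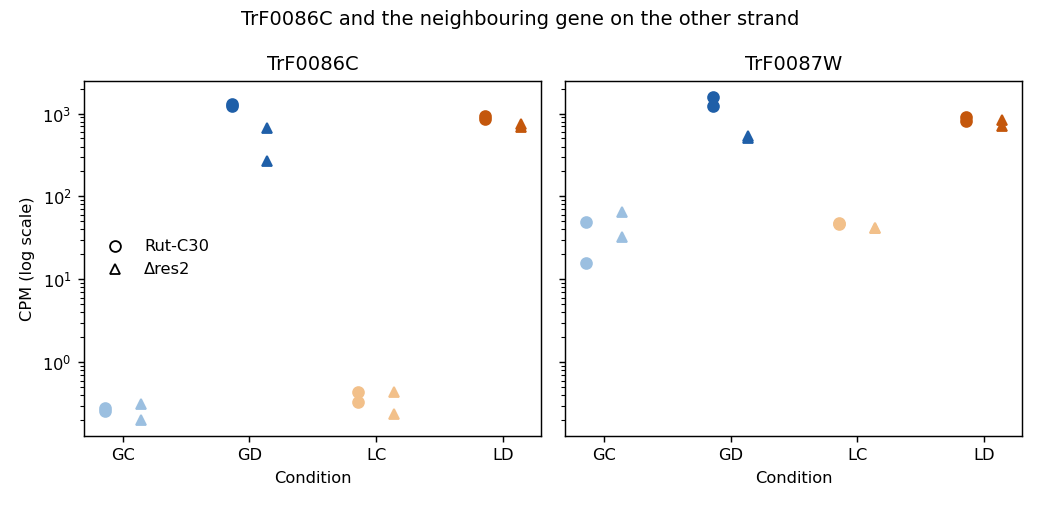
CPM on a log axis of TrF0086C and of its neighbour TrF0087W on the other strand in the 4 conditions, with 1 circle per Rut-C30 and 1 triangle per Δres2 library. Under DTT both genes lie between 267 and 1576 CPM, but in the controls TrF0086C is below 0.5 CPM and TrF0087W between 15.9 and 65.7 CPM.

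Neighbouring genes in general did not share the DTT response of the 22. Of the 36 genes directly beside one of them that are not themselves among the 22, 33 were fitted. In GD/GC 10 of these were called higher and 6 lower (30.3% higher, beside 24.8% higher and 29.8% lower among all fitted genes). In LD/LC 8 were called higher and 9 lower (24.2% higher, beside 27.1% higher and 30.3% lower). A gene was called at an adjusted p under 0.05. TrB1648W and TrB1649W were the only directly adjacent pair among the 22, and no other 2 of the genes had 1 gene or none between them. Chromosome VII held 6 of the 22, chromosomes I and II 5 each, and chromosome V none, while these chromosomes hold 11.2%, 19.8%, 18.5% and 12.1% of the annotated genes. Only TrD0016C lay within 100 kb of an end of the annotated chromosome.

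TrB1648W (chromosome II, 5251640 to 5251873) and TrB1649W (5252852 to 5253094) are new models of 1 exon each on the plus strand, 978 bases apart. TrB1648W had 39.5 and 14.3 CPM in GD of Rut-C30, 15.5 and 24.4 CPM in GD of Δres2, 40.8 and 39 CPM in LD of Rut-C30 and 40.7 and 28.4 CPM in LD of Δres2. TrB1649W had 27.2 and 9.36 CPM in GD of Rut-C30, 10.02 and 18.1 CPM in GD of Δres2, 29.9 and 31.2 CPM in LD of Rut-C30 and 33.9 and 26.8 CPM in LD of Δres2. The count of the first divided by that of the second was 1.35 to 1.54 in the 4 GD libraries and 1.06 to 1.37 in the 4 LD libraries, and it was 0.167 to 2.4 in the control libraries, where both counts were low. In GD both genes were highest in the first Rut-C30 culture, whereas in LD the order of the cultures differed between them. In the controls, TrB1648W had at most 0.488 CPM and TrB1649W at most 0.544 CPM.

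The spread between libraries separated the 2 DTT conditions. In LD, the highest of the 4 libraries was 1.09 to 4.45 times the lowest, with a median of 1.43 over the 22 genes. In GD, the same ratio ran from 2.45 for TrC0314C to 659 for TrG0063C, with a median of 14.4. All 22 genes varied more in GD than in LD, and 12 varied by more than 10-fold in GD but none in LD. The 267 other genes raised by DTT, described below, had medians of 2.88 in GD and 1.26 in LD. None of them varied by more than 10-fold in LD, so that a wider range in GD is not particular to the 22. Among the 22, the wide range was present within each strain. Duplicate cultures differed by more than 2-fold for 14 genes in GD of Rut-C30 and 15 in GD of Δres2. In LD this held for none in Rut-C30 and 3 in Δres2. Among all genes with a mean of at least 5 CPM in the group, the shares differing by more than 2-fold were 12.2% in GD of Rut-C30, 44.2% in GD of Δres2, 0.0436% in LD of Rut-C30 and 0.133% in LD of Δres2. The 22 were counted without that limit, and some had lower group means, such as TrF1120W with 0.807 CPM in GD of Rut-C30. The 2 kinds of share are thus not fully alike. The lowest count of any of the 22 in a DTT library was 14, so that the low readings in GD rest on counts above 10.

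No single GD culture was high for all the genes. The highest GD library was the first Rut-C30 culture for 4 genes, the second for 8, the first Δres2 culture for 6 and the second for 4. TrG0063C (TRIREDRAFT_82014) showed the widest range, with 0.714 and 35.1 CPM in GD of Rut-C30 and 471 and 4.67 CPM in GD of Δres2. In LD it had 7.54 and 7.9 CPM in Rut-C30 and 4 and 9.5 CPM in Δres2, and in the controls 0.311 to 0.887 CPM. The first Δres2 culture was thus the highest, and the first Rut-C30 culture lay among the controls.

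TrB0175C (TRIREDRAFT_111237, 222 coding bases) followed another order, with 47 and 13.2 CPM in GD of Rut-C30 and 1.92 and 319 CPM in GD of Δres2. TrA1946W (TRIREDRAFT_105408) was also highest in the second Δres2 culture, with 44.3 and 56 CPM in GD of Rut-C30 and 9.09 and 227 CPM in GD of Δres2. TrA2001C (TRIREDRAFT_105363) had 130 and 5.73 CPM in GD of Rut-C30 and 7.86 and 101 CPM in GD of Δres2. High and low cultures of TrA2001C thus stood within each strain.

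For 5 genes, the GD mean rested on 1 culture and fell under 5 CPM without it. These were TrA0614W and TrA0728C, with 3.67 and 1.39 CPM in the other 3 libraries, and TrD0868C, TrF1120W and TrG0149C, with 2.07, 2.95 and 1.6 CPM. TrG0149C (TRIREDRAFT_81420) had 2.42 and 0.786 CPM in GD of Rut-C30 and 42.9 and 1.59 CPM in GD of Δres2, but 13.6 and 17.1 CPM in LD of Rut-C30 and 12.6 and 12.3 CPM in LD of Δres2. Apart from TrF1120W, which had 2 GD cultures above 5 CPM, these genes were above 5 CPM in every LD culture but in only 1 GD culture. In LD, only TrG1002W failed the limits without 1 culture, the second of Δres2.

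Genes of the UPR were high in all GD cultures. The ER chaperone gene *bip1* (TrG0399C) counted 12927 to 25151 CPM in the 4 GD libraries and 605 to 1104 CPM in the GC libraries. Its highest GD library was 1.95 times the lowest, and the ratio was 1.9 for *pdi1* (TrA0675W), 1.52 for *hrd1* (TrE0315W), which takes part in ER-associated degradation, and 1.7 for *lcl2* (TrA0243C). All 4 of these UPR and ERAD genes were called higher in GD/GC and 3 of 4 in LD/LC. Of the 8 redox, peroxide and stress genes which the study names, 5 were called higher and 2 lower in GD/GC, and 2 higher and 1 lower in LD/LC. The study reported genes of this list, such as *cta1*, *snq2* and *hsp30*, as changed in these samples. The list is thus not independent of them. Over all fitted genes, 24.8% were called higher and 29.8% lower in GD/GC and 27.1% and 30.3% in LD/LC, so that the 2 of 8 in LD/LC are near the share of all genes. The 13 transmembrane transport genes were all called higher in GD/GC and 12 of 13 in LD/LC. The study took them from these samples, and they include TrB1936W and TrF1120W. Each gene of these 2 lists had a wider range in GD than the 4 UPR and ERAD genes. Among the redox, peroxide and stress genes, the highest GD library was 2.59 (*hsp30*) to 205 (*cta1*) times the lowest. Among the transport genes, the ratio ran from 3.58 for TrB1039W to 73 for TrF1120W. It was 37.6 for TrB0922W, the widest of the transport genes apart from TrF1120W.

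The same ratio was taken for other genes raised by DTT. Outside the 22 and *cta1*, 267 genes were higher in both GD/GC and LD/LC by the criteria of the study (adjusted p under 0.005, log2 fold change beyond 2, mean normalized count of 100 or more). These criteria were applied here and below to the edgeR fit, with the strains averaged in GD/GC and LD/LC. The study applied its own with DESeq2 within each strain. For the 267 genes, the highest GD library was a median of 2.88 times the lowest, and 25 of 267 (9.36%) varied by more than 10-fold. Among the 225 with a mean in GD within that of the 22 genes, the median was 2.98. The 16 of the 22 genes that meet the same criteria had a median of 7.95, and 7 of them varied by more than 10-fold. Since the criteria favour genes with a small spread, these 16 are nearer in kind to the 267 than all 22 are. Their choice still used the GD means. TrA0614W, TrF1120W and TrG0149C are among the 16 and had GD means of 3.67, 2.95 and 1.6 CPM without their highest culture. The limits also asked the 22, but not the 267, for less than 1 CPM in the controls. No excess is therefore read from the comparison, and no test of the difference was made.

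**Figure D3:**
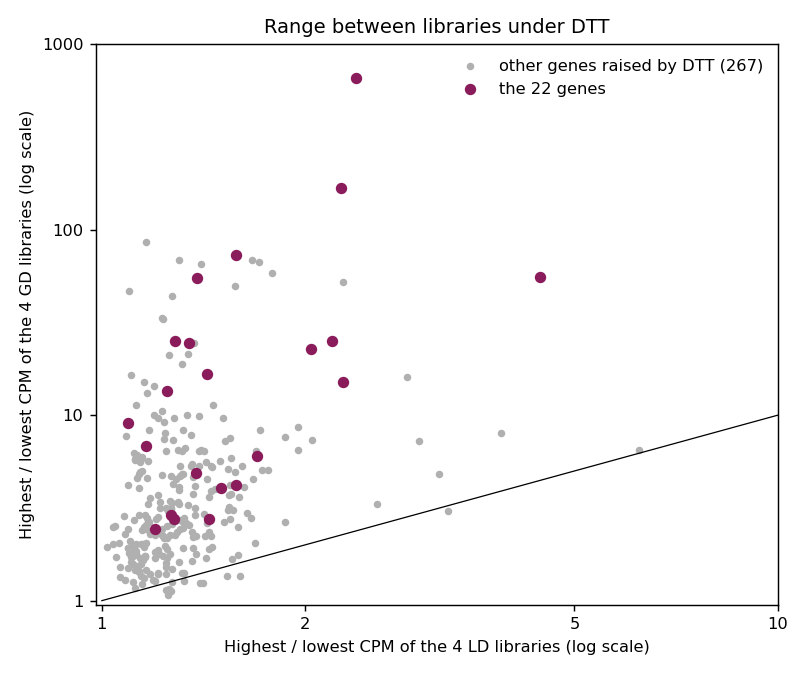
Highest CPM divided by lowest CPM of the 4 GD libraries (vertical) against the same ratio of the 4 LD libraries (horizontal), both on log axes, for the 22 genes and for 267 other genes raised by DTT with both carbon sources. The line marks equal ranges. All 22 genes lie above it, with a median of 14.4 in GD and 1.43 in LD. Most of the 267 others also lie above it, with medians of 2.88 in GD and 1.26 in LD.

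Carbon source under DTT was compared by LD/GD, averaged over the strains (4 libraries against 4). The limits asked for 5 CPM in both conditions and did not use their difference. They did use the values of both, so that genes reaching 5 CPM in only 1 of them were left out. No excess over the other genes is therefore read from the counts. Of the 22 genes, 5 were called, 3 higher and 2 lower in LD, beside 14.3% of all 9101 fitted genes (6.32% higher and 8.01% lower). By the criteria of the study, 1 of the 22, TrG0953W, passed, beside 0.736% of the fitted genes. The median log2 fold change of the 22 was 0.34, and that of all fitted genes was -0.08.

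TrG0953W (TRIREDRAFT_56326, chromosome VII, 3115681 to 3116703, 1 exon) was read at a far higher level in LD than in GD. It had 11.2 and 3.18 CPM in GD of Rut-C30, 12.8 and 4.09 CPM in GD of Δres2, 103 and 88.6 CPM in LD of Rut-C30 and 126 and 83.7 CPM in LD of Δres2. Its 4 LD libraries all lay above its 4 GD libraries, and the log2 fold change was 3.66 ± 0.42 (SE, adjusted p = 7.11e-04 by edgeR's quasi-likelihood test). In the controls, it had 0.266 to 0.715 CPM in GC and 0.135 to 0.408 CPM in LC, a level which the limits required.

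TrC0314C and TrA0728C were also higher in LD. TrC0314C, a new model of 171 coding bases, had 17.9 and 26.6 CPM in GD of Rut-C30, 10.9 and 22.7 CPM in GD of Δres2, 64.2 and 69.2 CPM in LD of Rut-C30 and 77 and 68.5 CPM in LD of Δres2. The LD and GD libraries did not overlap, with a log2 fold change of 1.75 ± 0.49 (adjusted p = 0.038, edgeR's quasi-likelihood test). TrA0728C (TRIREDRAFT_108457) had 1.37 and 1.8 CPM in GD of Rut-C30, 25.5 and 1.01 CPM in GD of Δres2, 18.2 and 23.3 CPM in LD of Rut-C30 and 19.4 and 21.9 CPM in LD of Δres2. Here 1 GD culture was higher than every LD culture, and the log2 fold change was 2.23 ± 0.63. Without that culture the GD mean of TrA0728C was 1.39 CPM and the gene would not have been chosen. Its difference is therefore given as a description without a p.

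TrB1936W and TrB0175C were lower in LD. The transport gene TrB1936W (chromosome II, 6069357 to 6070796) had 39 and 110 CPM in GD of Rut-C30, 35.5 and 26.2 CPM in GD of Δres2, 15.3 and 12.9 CPM in LD of Rut-C30 and 16.8 and 20.4 CPM in LD of Δres2. All LD libraries were below all GD libraries, with a log2 fold change of -1.59 ± 0.25 (adjusted p = 0.00312, edgeR's quasi-likelihood test). TrB0175C had 9.75 and 6.64 CPM in LD of Rut-C30 and 4.32 and 4.84 CPM in LD of Δres2, and its log2 fold change of -3.70 ± 1.07 (adjusted p = 0.0425, edgeR's quasi-likelihood test) was -0.27 (adjusted p = 0.728) without the second Δres2 GD culture. TrG0953W and TrB1936W were called in all 22 alternative analyses, TrC0314C in 15, TrA0728C in 9 and TrB0175C in 5. TrC0314C was not called without any 1 of the LD or Rut-C30 GD cultures, nor with the replicate block. The number of called genes was 10 without the first Δres2 GD culture (beside 23.2% of all genes in that fit) and 10 without the second (beside 29.1%). It was 2 without the second Rut-C30 GD culture (beside 8.34%) or any 1 LD culture (beside 4.66% to 5.57%), and 3 without any 1 LC culture (beside 9.16% to 9.41%) or Δres2 GC culture (beside 18% and 18.1%).

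Of the genes that were not called, TrG0063C had the lowest log2 fold change in LD/GD with -3.07 ± 1.12, followed by TrA1946W with -1.86 ± 0.69 and TrA2001C with -1.85 ± 0.86. TrG0149C stood at 1.23 ± 0.66, and the highest gene of all, TrF0086C, at 0.05 ± 0.23. The values of TrA1946W and TrA2001C changed sign when the GD culture with their highest reading was left out (0.22 and 0.031), and neither was called there. Within Rut-C30 alone, TrB1936W, TrF1120W and TrG0953W were called in LD/GD (beside 3.33% of all fitted genes), and within Δres2 alone, TrG0953W was called (beside 2.77%). TrF1120W had a mean of 0.807 CPM in GD of Rut-C30 and met the GD limit only through Δres2. Nothing is therefore read from its call.

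**Figure D4:**
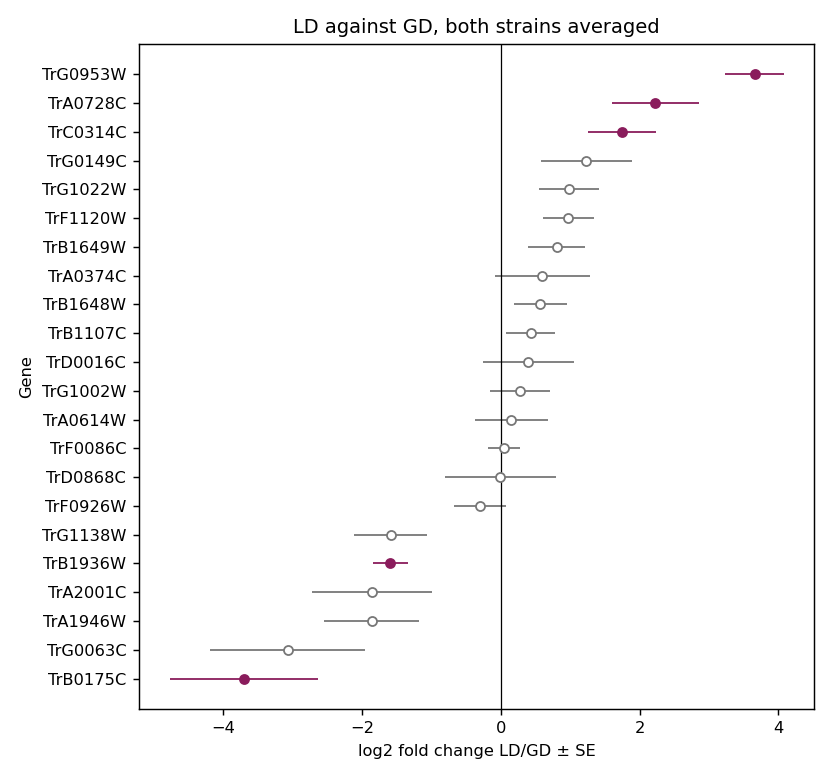
Log2 fold change LD/GD of the 22 genes with the strains averaged (points, with bars for the standard error of the fit); filled points were called at an adjusted p under 0.05. TrG0953W at 3.66 and TrB1936W at -1.59 have narrow bars, whereas TrB0175C at -3.70 and TrG0063C at -3.07 have wide ones.

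The strains were compared by Δres2/Rut-C30 under DTT, 2 libraries against 2. The limits averaged the strains, but a gene could meet a limit through 1 strain alone: with the limits applied to the libraries of Rut-C30 only 15 of the 22 genes met them, and with those of Δres2 only 17. Strain differences of such genes could be favoured by the choice, and no excess over the other genes is read from the counts. In GD, 2 of the 22 genes were called, both higher in Δres2, beside 0.0549% of all fitted genes (5 genes; 0.033% higher). By the criteria of the study, none of the 22 passed in GD, beside 0.011% of the fitted genes. The median log2 fold change was -0.25 (0.01 over all fitted genes), with 10 of the 22 above 0 and 12 below. This median was 1.04 without the first Rut-C30 GD culture. In LD, none was called, beside 0.011% of all fitted genes (1 gene), and 1 of the 22 had an unadjusted p under 0.05. DESeq2 called 4 of the 22 in GD (beside 2.27% of the genes it tested) and none in LD (beside 0.142%). The 4 were TrF0086C, TrF1120W, TrG0149C and TrG1002W, and all but TrF0086C were lost with the limits on Rut-C30 alone. With the LD libraries alone in the fit, 3 of the 22 were called in LD, beside 16.5% of the genes tested. With limma voom and sample weights 3 were called there, beside 12.6%. The strains are therefore not shown to be alike in LD.

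Both called genes had Rut-C30 means under 5 CPM in GD (0.656 and 0.807 CPM) and were lost with the limits on Rut-C30 alone, so that their difference in GD is given as a description without a p. TrG1002W (TRIREDRAFT_56897, chromosome VII, 3269527 to 3270656) had 0.559 and 0.753 CPM in GD of Rut-C30 and 24.6 and 31 CPM in GD of Δres2. In LD it had 2.77 and 3.92 CPM in Rut-C30 and 5.4 and 12.3 CPM in Δres2. Without DTT it stood at 0.162 to 1.67 CPM in GC, where the highest library was from Rut-C30, and at 0.101 to 0.236 CPM in LC. Its Rut-C30 GD cultures thus lay within the range of the GC cultures. The log2 fold change was 5.45 ± 0.73 in GD and 1.54 ± 0.61 in LD, where it was not called and where the Rut-C30 cultures were again under 5 CPM.

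The transport gene TrF1120W (chromosome VI, 3694235 to 3695848) had 0.435 and 1.18 CPM in GD of Rut-C30 and 31.7 and 7.23 CPM in GD of Δres2. In LD the order of the strains was the other way round, with 9.67 and 8.88 CPM in Rut-C30 and 6.44 and 6.11 CPM in Δres2. The log2 fold change was 4.49 ± 0.59 in GD and -0.42 ± 0.50 in LD, where it was not called. The difference between the strains in LD/GD had a log2 value of -4.91 ± 0.76 for TrF1120W and -3.91 ± 0.90 for TrG1002W, and neither was called.

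Both calls in GD depended on the fit. With only the 4 GD libraries in the fit, neither gene was called, nor with voom weights that gave the Δres2 GD libraries the lowest weights of all (0.122 and 0.108). The spread of the GD libraries alone was larger than the common one used in the test (biological coefficient of variation 0.525 against 0.3553) and that of the LD libraries far smaller (0.0618). Leaving out either Δres2 GD culture moved the number of called genes in GD. Those numbers are not given, since 1 culture is then left in the group. Without the second, it is the culture through which TrA0728C, TrF1120W and TrG0149C reached the GD limit. Without any 1 of the Rut-C30 GD, LC or LD cultures, none was called.

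TrF0086C counted less in Δres2 than in Rut-C30 in GD, with a log2 fold change of -1.52 ± 0.34, but was not called (adjusted p = 0.263, edgeR's quasi-likelihood test). DESeq2 did call it, and its log2 fold change stayed between -2.00 and -1.16 in all alternative analyses. In LD, its log2 fold change was -0.19 ± 0.33. The lowest values in GD were those of TrA0614W with -1.93 ± 0.77 and TrG1022W with -1.72 ± 0.63. In LD, TrA2001C with 0.84 ± 1.19 followed TrG1002W at the upper end, and TrB0175C with -0.70 ± 1.39 and TrA1946W with -0.61 ± 0.95 stood at the lower end. These errors came from the fit of all libraries and so carry the spread in GD as well. With both DTT conditions averaged, none of the 22 was called (beside 0.011% of all fitted genes), 5 had an unadjusted p under 0.05, and DESeq2 called 3 (beside 0.813%). These 3 were TrF0086C, TrF1120W and TrG1002W. No fitted gene was called by edgeR for a strain difference in LD/GD (0%), while 5 of the 22 had an unadjusted p under 0.05 and DESeq2 called 2 (beside 0.1%). These 2 were TrF1120W and TrG1002W, whose Rut-C30 means in GD were under 5 CPM. Nothing is therefore read from these counts. Leaving out 1 Δres2 GD culture moved the numbers called by edgeR in both comparisons. They are not given, since 1 culture is then left in that group.

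**Figure D5:**
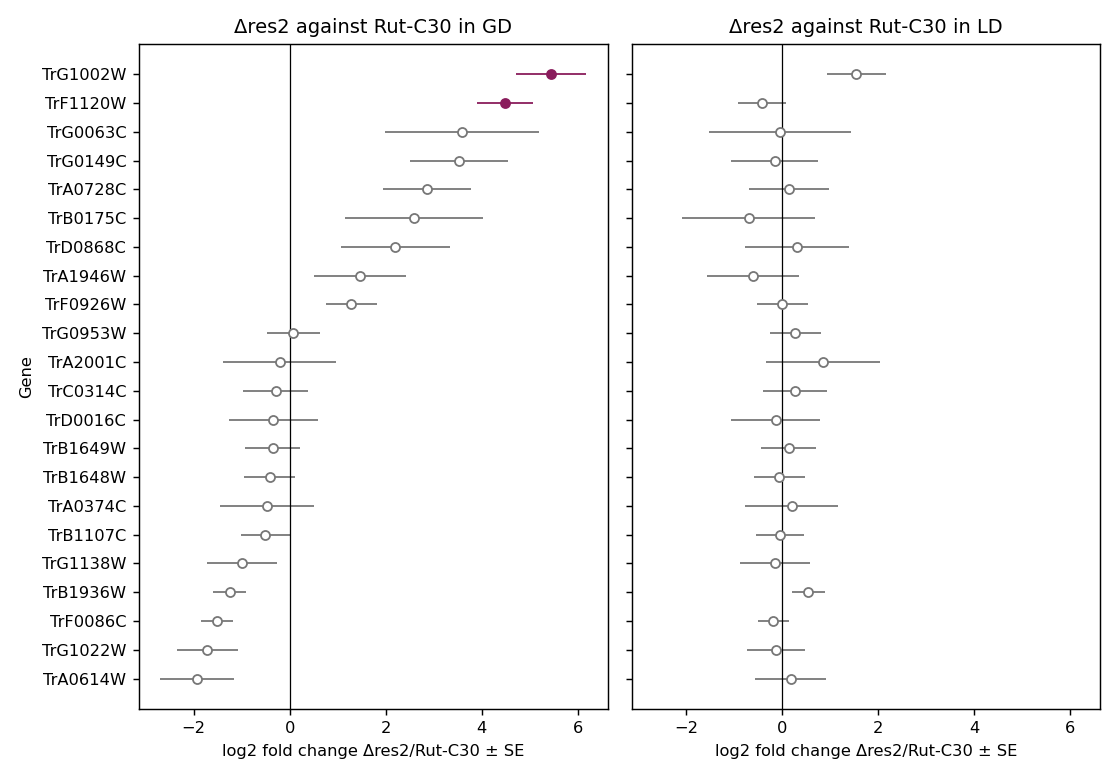
Log2 fold change Δres2/Rut-C30 of the 22 genes in GD (left) and LD (right), with bars for the standard error of the fit and the genes in the same order in both panels; filled points were called at an adjusted p under 0.05. The values run from -1.93 to 5.45 in GD and from -0.70 to 1.54 in LD.

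Of the remaining genes, TrD0016C (TRIREDRAFT_66544) had 34.2 and 89 CPM in GD of Rut-C30, 5.36 and 76.4 CPM in GD of Δres2 and 58.6 to 83.7 CPM in LD, where all cultures were close. TrB1107C (TRIREDRAFT_107185) was among the steadier genes, with 5.99 to 16.6 CPM in GD and 12.5 to 16 CPM in LD. TrA0374C (TRIREDRAFT_121337), whose coding sequence has 159 bases, had 0.884 to 13.4 CPM in GD and 7.53 to 17.1 CPM in LD against at most 0.112 CPM in the controls. TrG1138W (TRIREDRAFT_56587) had 8.11 to 49 CPM in GD and 5.003 to 8.49 CPM in LD, and 1 GC culture of Rut-C30 had 2.07 CPM, the highest control value of all 22 genes. TrG1022W (TRIREDRAFT_75247) had 1.23 to 16.7 CPM in GD and 12.6 to 15.8 CPM in LD, and TrA0614W (TRIREDRAFT_108553) 3.19 to 29.1 CPM in GD and 8.77 to 9.57 CPM in LD.

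The limits cut through a continuous range of levels. At the control limit, TrF0926W (TRIREDRAFT_61839) with 0.998 CPM and TrG1138W with 0.816 CPM in GC were just inside, and TrE1107C with 1.08 CPM and TrB1282W with 1.11 CPM just outside. In LC, TrF0926W with 0.738 CPM and TrA2001C with 0.719 CPM were the nearest inside, and TrA0101C with 1.02 CPM and TrA0277C with 1.23 CPM the nearest outside. At the DTT limit, TrD0868C (TRIREDRAFT_54622) with 6.65 CPM and TrA0374C with 7.24 CPM in GD were inside, and TrD0412C with 4.19 CPM and TrA0053C with 3.36 CPM outside. In LD, TrD0868C with 5.95 CPM and TrG1002W with 6.11 CPM were inside, and TrC1574W and TrE0017C, both with 4.00 CPM, outside.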

How the data were processed

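RNA from 16 cultures of *T. reesei* Rut-C30 and Δres2 was analysed, 2 for each strain and condition, grouped by the deposited sample labels, which give a fed-batch of 48 h (the study's methods give an earlier sampling time). The authors trimmed and filtered the reads, aligned them to the QM6a genome with STAR 2.7.8a, removed reads with several alignments and used HTSeq 0.5.3 to count reads over the CDS of their own annotation. The deposited values were these raw counts of 10008 genes, and whether counting used the strand is not stated. Reads of near-identical genes were removed by that filter, so that such genes may be undercounted. The deposited annotation placed 9847 genes. Library totals of 20351784 to 35679977 counts set the precision of the counts. The standard errors came from the fit of all libraries together and pool the spread between duplicate cultures over all groups. They therefore do not measure the spread of the compared cultures alone. The biological coefficient of variation was 0.3553 over all libraries, but 0.525 in the GD and 0.0618 in the LD libraries alone.

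CPM was computed from library sums. Counts were fitted with edgeR 4.0.16 (R 4.3.3): filterByExpr, TMM factors, 1 model of all libraries with 8 group means and 8 residual degrees of freedom, robust quasi-likelihood F tests and Benjamini-Hochberg adjustment over 9101 genes; all 22 genes passed the filter. The standard error (SE) was the absolute log2 fold change divided by the square root of F, and the prior count of 0.125 affects low controls. Genes were called at an adjusted p under 0.05. The scripts were tested on simulated data. The alternatives were DESeq2 1.42.0, DESeq2 size factors, no filter, the libraries of a comparison alone, limma 3.58.1 voom with sample weights and a pseudocount of 0.5, the replicate number as a block, each library left out, the study's limits and other CPM limits; LD/GD within each strain was added to the alternatives after seeing the data. The genes and the gene lists were chosen with earlier results of these data known. All 22 genes are named; of other genes, those of the lists and those nearest the limits are named by rule.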

Additional observations from a re-analysis of the deposited data

Results flagged for a closer look

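Within the 4 libraries of GD or LD, 1 culture lay far from the others for 11 of the 44 groups of values (22 genes in 2 conditions), where chance gives such a library in about 1 of 20 independent groups. That rate is no yardstick here, since the genes share libraries and the limits used the GD means: TrA0614W, TrA0728C, TrD0868C and TrG0149C, 4 of the 9 genes flagged in GD, would not have been chosen without their high culture. In GD, 9 genes had a single high culture. TrA0614W had 29.1 CPM in the second Rut-C30 culture against 3.19 to 4.58 CPM in the others. TrB1936W had 110 CPM there against 26.2 to 39 CPM, and TrG1138W 49 CPM against 8.11 to 15 CPM. In the first Δres2 culture, TrA0728C had 25.5 CPM against 1.01 to 1.8 CPM, TrF0926W 31.7 CPM against 4.67 to 6.87 CPM, TrG0063C 471 CPM against 0.714 to 35.1 CPM and TrG0149C 42.9 CPM against 0.786 to 2.42 CPM. In the second Δres2 culture, TrB0175C had 319 CPM against 1.92 to 47 CPM and TrD0868C 20.4 CPM against 0.835 to 2.78 CPM.

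In LD, TrB1107C had 16 CPM in the second Rut-C30 culture against 12.5 to 12.9 CPM, and TrB1648W had 28.4 CPM in the second Δres2 culture against 39 to 40.8 CPM. The flagged libraries of GD were spread over 3 of its 4 cultures, and the cause was not tested.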

How the results depend on the processing

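The number of genes that met the limits was 22 and became 8 with the limits in every library, 9 with a DTT limit of 10 CPM, 41 with one of 2 CPM, 12 with a control limit of 0.5 CPM and 41 with one of 2 CPM. TMM-scaled CPM gave 24 genes including all 22, Rut-C30 alone 16 (15 shared), Δres2 alone 20 (17 shared) and leaving out 1 library 19 to 24. For LD/GD, the 5 called genes became 8 with DESeq2, 3 with the libraries of the comparison alone, 3 with the replicate block, 1 with the study's limits, 3 in Rut-C30 and 1 in Δres2 alone, and 2 to 10 without 1 library each. The 10 were reached when either Δres2 GD culture was left out. For Δres2/Rut-C30 in GD, the 2 called genes became 4 with DESeq2 and 0 with the libraries of the comparison, with voom, with the replicate block and with the study's limits. The median there, -0.25, ran from -1.23 (without the second Δres2 GD culture) to 1.04 (without the first Rut-C30 GD culture). In LD, 0 became 3 with the libraries of the comparison (beside 16.5% of all genes tested) and 3 with voom (beside 12.6%). Averaged over GD and LD, 0 became 3 with DESeq2 and 1 without the filter. For the strain difference in LD/GD, 0 became 2 with DESeq2. Strain counts in GD, averaged and for LD/GD also moved when 1 library was left out. They are not given, since 1 culture is then left in its group. Leaving out 1 library gave LD/GD values of -2.32 to 0.22 for TrA1946W, -2.32 to 0.031 for TrA2001C and -0.13 to 0.31 for TrF0086C, and Δres2/Rut-C30 values in GD of -2.76 to 0.22 for TrA0614W; the values of changed sign were not called. Why calls moved was not tested.

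The replicate numbers did not pair the cultures in general: the deviations of same-numbered libraries correlated with r = -0.264 to 0.622 over 28 pairs of groups. The value of 0.622 was that of GC with GD in Rut-C30, where same-numbered cultures did deviate alike. All other pairs stood at 0.177 or below. With 2 cultures per group and a wide spread in GD, strain differences in GD have low precision. Promoter motifs and classes by product name were not run.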
